A study of Mus musculus with 2 samples.

Results

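The genes described here are 38 markers and receptors of the myeloid lineage, the macrophages, dendritic cells and granulocytes of the innate immune system. They were chosen by name as known lineage genes, and all 38 were found among the 22756 gene rows of the files. Each had at least 1 read in at least 1 library, and 33 had 30 or more reads summed over both libraries. Those 33 are called measured. The other 5 (S100a8, S100a9, Csf3r, Lst1 and Ccr2) fell below that minimum and are given by their counts.

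The assay was ribosome profiling: tissue lysates were treated with nuclease, and the mRNA pieces shielded by ribosomes (footprints) were sequenced. The tissue was ileum of wild type C57BL/6 mice aged 21 postnatal days. The groups were mice fasted for 48 h and fed mice, with 1 library each, so no spread between animals can be given and no test between the feeding states can be made. The sources used here do not say how many animals gave each library, and no matched mRNA library was analysed here. Because whole ileal tissue was lysed, fewer cells of a type, less mRNA per cell and less translation per mRNA cannot be told apart.

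Intestinal macrophages are renewed largely from blood monocytes under the growth factor receptor Csf1r, and they clear dying cells and microbes below the epithelium. Macrophages read their surroundings through Fc receptors, which bind antibody, through lectins and scavenger receptors, and through the adaptors Tyrobp and Fcer1g, whose ITAM motifs recruit the kinase Syk. Dendritic cells, which depend on the receptor Flt3, carry antigen to T cells, and neutrophils, which respond through Csf3r, carry abundant S100a8 and S100a9.

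Footprints assigned to genes numbered 5434252 in the fasted and 5558620 in the fed library. The 38 genes together had 5666 footprints in the fasted library, 0.104% of its gene counts, and 6941 in the fed library, 0.125%. The 95% intervals of these shares (Clopper-Pearson, exact) were 0.102% to 0.107% for the fasted and 0.122% to 0.128% for the fed library. Ratios are fasted over fed after TMM scaling, which sets the typical gene near a ratio of 1. Their 95% exact intervals cover counting error only and take every read as independent. Amplified reads are not independent molecules, so the intervals may be too narrow even for counting error. A gene is called higher or lower here when it is measured, its ratio is at least 1.5-fold and its interval excludes 1. Plain CPM, which divides by total gene counts alone, lowers every log2 ratio by 0.32 (shift -0.32), the median of all genes included. Where a statement depends on that choice, a scale-free value may stand beside it: the change of a gene's counts relative to the summed counts of the other listed genes, which no scaling alters.

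Defining macrophage genes were well covered, and most defining neutrophil genes were at or near 0. Csf1r had 706 footprints in the fasted and 863 in the fed library, Mpeg1 840 fasted and 936 fed, and the F4/80 antigen gene Adgre1 97 fasted and 182 fed. The neutrophil alarmins S100a8 and S100a9, which make calprotectin, had 1 and 2 footprints in the fasted library and 0 each in the fed library, and a count of 0 allows up to 0.483 scaled CPM there. Csf3r, the G-CSF receptor, had 3 footprints in the fasted and 10 in the fed library (log2 ratio -1.38, interval -3.88 to 0.58). Of 9 further neutrophil genes in the files, 2 were measured, and Camp, Mmp8, Cxcr2 and Padi4 had at most 1 footprint in either library. Of 19 dendritic cell and antigen presentation genes in the files 12 were measured, among them Itgax with 170 footprints in the fasted and 294 in the fed library. Genes more particular to dendritic cells were sparse: Flt3 had 15 footprints in the fasted and 30 in the fed library, Xcr1 6 fasted and 17 fed, and Zbtb46 13 fasted and 15 fed. Eosinophil and mast cell genes with enough reads are given with the other lists further on.

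**Figure D1:**
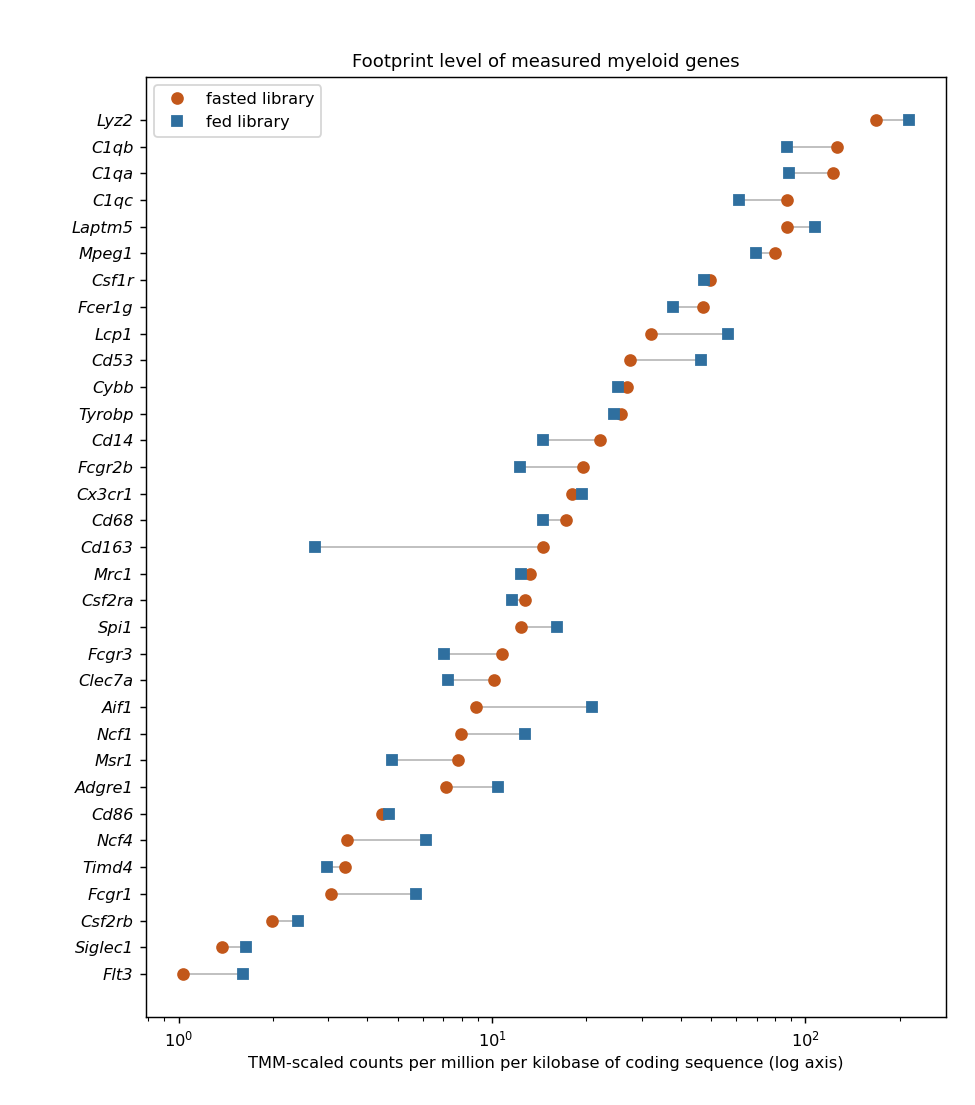
Footprint level of each of the 33 measured myeloid genes (rows) in TMM-scaled CPM per kilobase of coding sequence on a log axis, with circles for the fasted and squares for the fed library, 1 library each. Lyz2 is highest in both libraries, and Cd163 stands at 14.5 in the fasted against 2.73 in the fed library.

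Per kilobase of coding sequence the measured genes ranged from 1.03 (Flt3) to 167.8 (Lyz2) scaled CPM in the fasted library and from 1.61 (Flt3) to 214.9 (Lyz2) in the fed library. Behind Lyz2, the next levels in the fasted library were C1qb (126.1), C1qa (122.9), C1qc (87.6), Laptm5 (87.5) and Mpeg1 (80.0). In the fed library Laptm5 came next (107.7), then C1qa (88.9), C1qb (87.3), Mpeg1 (69.7) and C1qc (61.5). Fcer1g, the short adaptor of Fc receptors, stood at 47.0 in the fasted and 37.9 in the fed library on this scale, and Csf1r at 49.6 fasted and 47.4 fed. Cd163 moved furthest in this order of 33, standing at place 17 in the fasted and 30 in the fed library.

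Of the 33 measured genes, 4 were higher in the fasted library (Cd163, Msr1, Fcgr2b and Cd14), 5 were lower (Aif1, Fcgr1, Lcp1, Cd53 and Ncf1) and the rest were neither. The higher genes made up 12.1%, against 17.2% of the 11333 genes measured in these libraries, and the lower ones 15.2%, against 17.3%. Both shares were near or under the background, so neither count sets these genes apart from genes at large. The median log2 ratio was 0.084, beside 0.0024 over all measured genes, and the summed counts had a ratio of 1.04 (interval 1.01 to 1.08). With plain CPM 1 gene was higher (Cd163), 3.03% against a background of 8.86%, and 11 were lower, 33.3% against 31.2%. In either direction the background was 34.6% with TMM and 40.1% with plain CPM. Under plain CPM both the median (-0.24) and the summed log2 ratio (-0.26) changed sign. With TMM, counting intervals excluded 1 for 8 genes above and 8 below it, and with plain CPM for 2 above and 13 below. The single log2 ratios with TMM spread from -1.23 (Aif1) to 2.41 (Cd163).

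**Figure D2:**
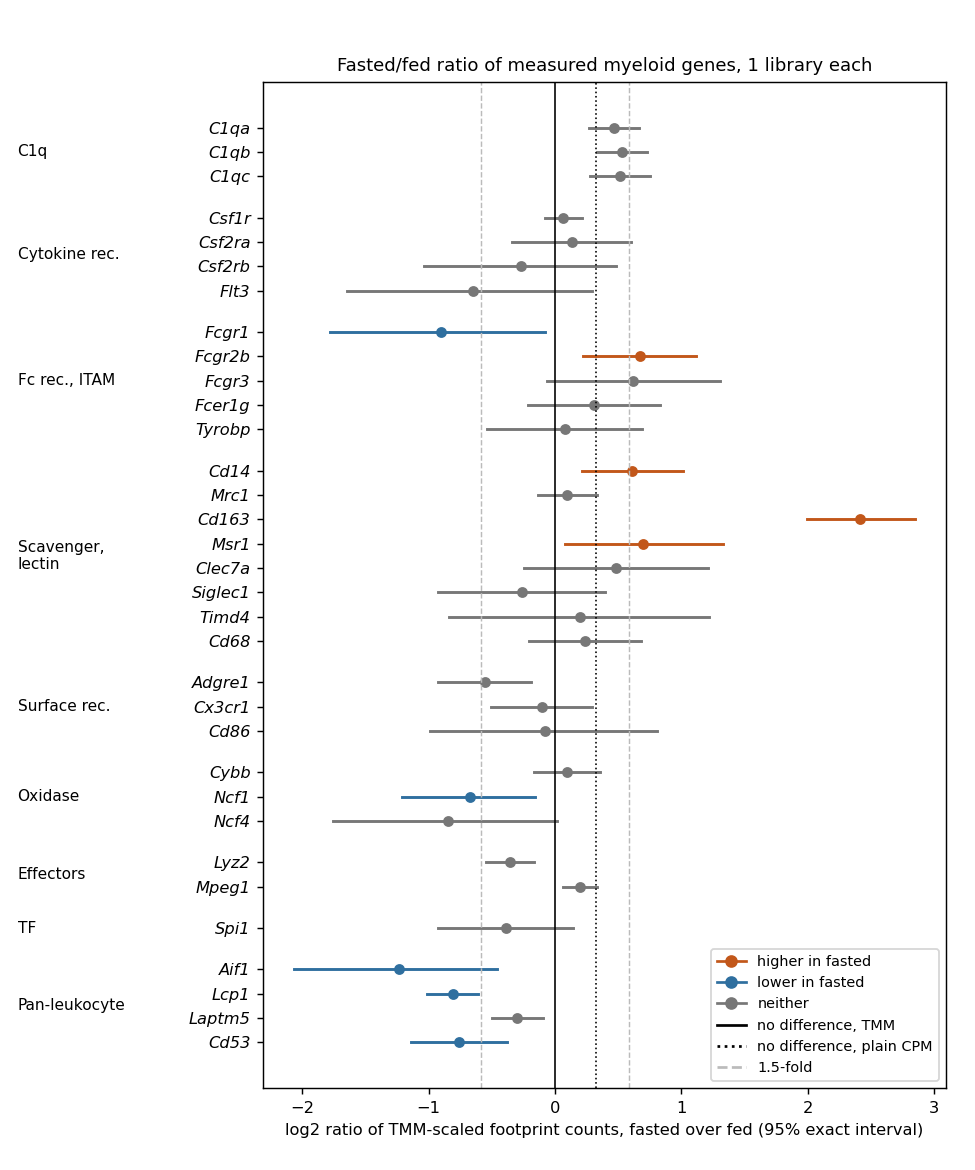
Log2 ratio (fasted over fed, TMM-scaled counts) of the 33 measured genes with 95% exact intervals for counting error, grouped by role; the solid line marks no difference with TMM, the dotted line no difference with plain CPM, and dashed lines 1.5-fold. Cd163 lies at 2.41, outside the range of -1.23 to 0.70 that holds all other genes.

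Cd163, the scavenger receptor by which macrophages take up haemoglobin bound to haptoglobin, had the largest ratio among the 33. It had 245 footprints in the fasted library against 59 in the fed library, or 50.4 scaled CPM in the fasted against 9.49 in the fed library. That is 5.31-fold higher in the fasted library (interval 3.98 to 7.18; log2 ratio 2.41, or 2.09 with plain CPM). Relative to the other listed genes the log2 change was 2.40 (1.98 to 2.84). Set against Mrc1, the mannose receptor that many tissue macrophages carry with it, Cd163 had 87.5% as many footprints in the fasted and 17.6% as many in the fed library. The log2 change of Cd163 relative to Mrc1 was 2.31 (1.83 to 2.81). Mrc1 itself had 280 footprints in the fasted and 335 in the fed library (log2 ratio 0.096, -0.14 to 0.33). Cd163 lies on chromosome 6 (124304656 to 124330527, plus strand, GRCm38), and every 28-base window of its 3477-base coding sequence was unique among annotated transcripts.

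The other recognition receptors lay closer to 1. Msr1, a class A scavenger receptor, had 52 footprints in the fasted and 41 in the fed library (log2 ratio 0.70, 0.079 to 1.33), and Cd14, the lipopolysaccharide co-receptor, 118 in the fasted and 99 in the fed library (0.61, 0.21 to 1.01). Both passed 1.5-fold with TMM, but with plain CPM Msr1 (0.38) and Cd14 (0.29) did not. Clec7a, the beta-glucan receptor Dectin-1, had 36 footprints in the fasted and 33 in the fed library (0.48, -0.24 to 1.21), and Cd68, a lysosomal glycoprotein of phagocytes, 84 in the fasted and 91 in the fed library (0.24, -0.21 to 0.68). Siglec1, the sialic acid receptor CD169, had 34 in the fasted and 52 in the fed library (-0.26, -0.93 to 0.39). Timd4, which binds phosphatidylserine on dying cells and marks long-lived gut macrophages, had 17 in the fasted and 19 in the fed library (0.19, -0.84 to 1.22). For these 4 the interval spans 1. As a group the 8 recognition receptors were higher relative to the other listed genes, by a log2 change of 0.62 (0.47 to 0.77). Of the 8, 3 were called higher with TMM, beside 17.2% of all measured genes, and 1 with plain CPM, beside 8.86%. Cd163 supplied 245 of their 866 footprints in the fasted library against 59 of 729 in the fed library. Without Cd163, a setting chosen after the values were seen, the group's log2 change was 0.26 (0.093 to 0.43).

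The 3 chains of complement C1q, the antibody and debris sensor that tissue macrophages secrete, had nearly equal ratios. C1qa had 439 footprints in the fasted and 406 in the fed library (log2 ratio 0.47, 0.27 to 0.67), C1qb 465 in the fasted and 412 in the fed library (0.53, 0.34 to 0.72), and C1qc 314 in the fasted and 282 in the fed library (0.51, 0.27 to 0.75). None reached 1.5-fold. Together they had 1218 footprints in the fasted and 1100 in the fed library, a ratio of 1.42 (1.30 to 1.54), and 0.18 on the log2 scale with plain CPM. They took 21.5% of the footprints on the 38 genes in the fasted library (95% exact interval 20.4% to 22.6%) and 15.8% in the fed library (14.996% to 16.7%). Relative to the other listed genes their log2 change was 0.54 (0.41 to 0.67), and relative to Csf1r alone it was 0.44 (0.25 to 0.63).

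C1q protein is built from equal numbers of the A, B and C chains. Per kilobase of coding sequence C1qb stood at 1.03 times C1qa in the fasted and 0.983 times in the fed library, while C1qc stood at 0.703 times the mean of the other two in the fasted and 0.698 times in the fed library. The balance of the chains was thus nearly the same in both libraries. The genes lie side by side on the minus strand of chromosome 4, C1qb at 136880129 to 136886187, C1qc at 136889804 to 136893065 and C1qa at 136895917 to 136898803.

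Promoter sequences of C1qb, C1qc and Cd163 are shown because the C1q chains had like ratios and Cd163 the largest. They are the 250 bases before each start in the RefSeq promoter table (GRCm38.p6), which held 26 of the 38 genes, C1qb, C1qc and Cd163 among them. For C1qc that start differs from the one in the gene coordinates given above. The part of its window up to 136893065 lies inside the gene as placed there. Capitals mark GAGGAA, a core of the site bound by the myeloid factor PU.1 (the product of Spi1), and TGCTGA, part of the site bound by Maf factors, each searched on both strands (TTCCTC and TCAGCA on the other).
C1qb (chr4:136886201-136886450, minus strand): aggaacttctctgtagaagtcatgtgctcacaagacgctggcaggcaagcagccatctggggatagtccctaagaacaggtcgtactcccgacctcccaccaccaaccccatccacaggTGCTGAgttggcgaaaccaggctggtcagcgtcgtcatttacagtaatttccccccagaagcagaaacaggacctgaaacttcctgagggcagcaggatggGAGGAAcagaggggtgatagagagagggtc
C1qc (chr4:136892915-136893164, minus strand): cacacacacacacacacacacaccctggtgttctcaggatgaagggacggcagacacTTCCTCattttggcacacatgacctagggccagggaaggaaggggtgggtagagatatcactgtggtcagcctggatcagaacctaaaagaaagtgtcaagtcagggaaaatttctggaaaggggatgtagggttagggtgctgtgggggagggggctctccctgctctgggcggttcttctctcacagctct
Cd163 (chr6:124304401-124304650, plus strand): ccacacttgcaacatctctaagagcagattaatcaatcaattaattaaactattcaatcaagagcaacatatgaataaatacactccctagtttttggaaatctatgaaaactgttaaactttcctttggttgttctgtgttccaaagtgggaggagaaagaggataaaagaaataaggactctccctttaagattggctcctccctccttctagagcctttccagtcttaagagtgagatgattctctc
GAGGAA stood in 15 of 29 promoters of the listed genes (51.7%), against 23.3% of all 32851 promoters in the table, and TGCTGA in 7 of 29 (24.1%), against 16.1%. C1qb held both motifs and C1qc the first. The Cd163 window held neither. A match of 6 letters is a description of the sequence and not a binding site.

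The factor Spi1 itself, which directs myeloid development, had 49 footprints in the fasted and 82 in the fed library (log2 ratio -0.39, -0.93 to 0.14), a difference not detectable at this depth with TMM. With plain CPM it was lower (-0.71).

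None of the 4 measured growth factor receptors was called with TMM, and all 4 intervals span 1. Csf1r, the CSF1 and IL-34 receptor, had 145.3 scaled CPM in the fasted and 138.8 in the fed library, a log2 ratio of 0.065 (-0.080 to 0.21) with one of the narrowest intervals among the 38 genes. Relative to the other listed genes it changed by 0.0036 (-0.15 to 0.16). Csf2ra, the alpha chain of the GM-CSF receptor, had 72 footprints in the fasted and 84 in the fed library (0.13, -0.34 to 0.60). Csf2rb, the beta chain shared with the IL-3 and IL-5 receptors, had 26 in the fasted and 40 in the fed library (-0.27, -1.04 to 0.48). Only 56.8% of 28-base windows in Csf2rb were unique, Csf2rb2 sharing more of the rest than any other gene. Csf2rb2 had 19 footprints in the fasted and 15 in the fed library. For Flt3, the dendritic cell growth factor receptor, the log2 ratio was -0.64 (-1.64 to 0.29), and it was lower with plain CPM (-0.97).

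Among their ligands, Csf1 had 81 footprints in the fasted and 142 in the fed library (-0.45, -0.87 to -0.051). Il34 had 14 in the fasted and 7 in the fed library, Flt3l 2 fasted and 10 fed, and Csf2 0 in both. Only 15.4% of 28-base windows in Flt3l were unique. Of the 6 measured growth factors and chemokines of 16 listed, 1 was lower, Cxcl12 (41 fasted and 167 fed footprints; -1.67, -2.20 to -1.17), and none was higher, beside 17.3% of all measured genes lower. With plain CPM 4 of 6 were lower, beside 31.2%.

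Antibody receptors did not all go one way. Fcgr2b, the inhibitory IgG receptor, had 97 footprints in the fasted and 78 in the fed library (log2 ratio 0.67, 0.22 to 1.12; 0.35 with plain CPM, under 1.5-fold). Fcgr3, an activating receptor, had 42 in the fasted and 35 in the fed library (0.62, -0.064 to 1.31). Fcgr1, the high-affinity activating receptor, went the other way with 18 in the fasted and 43 in the fed library (-0.90, -1.78 to -0.077), and it was lower with plain CPM too (-1.22). Fcgr4, a further activating receptor outside the 38, had 59 in the fasted and 71 in the fed library (0.088, -0.44 to 0.61). Fcgr2b and Fcgr3 share much of their extracellular coding sequence, and 75.0% and 68.0% of their 28-base windows were unique. The files count reads that align to several places apart from all genes.

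The ITAM adaptors that carry these signals differed by less than counting error. Fcer1g had 63 footprints in the fasted and 65 in the fed library (log2 ratio 0.31, -0.21 to 0.83), and Tyrobp, also called DAP12, 43 in the fasted and 52 in the fed library (0.081, -0.54 to 0.69). Most measured genes listed under ITAM signalling were lower. Of 11 measured genes of ITAM signalling, 9 were lower with plain CPM, beside 31.2% of all measured genes. With TMM 8 were lower in the fasted library, beside 17.3%, and 0 higher, at a median log2 ratio of -0.96. They included Plcg2, a phospholipase (145 fasted and 462 fed footprints; -1.32, -1.60 to -1.04), Fgr, a Src-family kinase (5 fasted and 28 fed; -2.13, -3.86 to -0.74), and Card9, an adaptor of Dectin-1 signalling (21 fasted and 70 fed; -1.38, -2.16 to -0.66). Relative to the summed 38 genes this list changed by -0.78 (-0.90 to -0.66). B cells use Syk, Btk and Plcg2 as well, and B and plasma cell markers were lower in the same library: 11 of 13, with a median of -0.86 and a summed level of 9859 scaled CPM in the fasted against 16798 in the fed library. The part of those cells in the ITAM result was not tested.

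None of the 3 measured receptors of adhesion, migration and costimulation was called with TMM. Adgre1 had 97 footprints in the fasted and 182 in the fed library, a ratio of 0.682 (0.527 to 0.877), just short of 1.5-fold with TMM and past it with plain CPM (log2 ratio -0.88). Cx3cr1, the fractalkine receptor of resident gut macrophages, had 93 in the fasted and 128 in the fed library (log2 ratio -0.11, -0.51 to 0.29), and its ligand Cx3cl1 732 in the fasted and 1056 in the fed library (-0.17, -0.31 to -0.036). Cd86, which costimulates T cells, had 20 in the fasted and 27 in the fed library (-0.078, -0.99 to 0.81). Ccr2, which brings monocytes out of the bone marrow and into tissue, had 5 footprints in the fasted and 22 in the fed library, under the minimum of 30. Its ratio was 0.291 (0.086 to 0.787). For Ccl2, a Ccr2 ligand, the count was 0 in the fasted and 7 in the fed library, and the interval of its ratio reached up to 0.887.

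The phagocyte NADPH oxidase makes superoxide from a membrane subunit, Cybb, and cytosolic subunits that join it on activation. Cybb had 224 footprints in the fasted and 268 in the fed library (log2 ratio 0.096, -0.17 to 0.36). The cytosolic organiser Ncf1 had 47 in the fasted and 96 in the fed library (-0.68, -1.21 to -0.16) and Ncf4 17 in the fasted and 39 in the fed library (-0.84, -1.76 to 0.013), so Ncf1 was lower and Ncf4 was not called. Set against Cybb, Ncf1 had 21.0% as many footprints in the fasted library and 35.8% as many in the fed library, a log2 change of -0.77 (-1.37 to -0.18), and Ncf4 changed by -0.94 (-1.89 to -0.036). Pairs set against Cybb were chosen after the values were seen. Coding exons of Ncf1 overlap exons of Gtf2ird2 on the opposite strand, and no strand setting is given, so reads of this pair cannot be fully told apart. The GTPase Rac2, which the oxidase of leukocytes needs, was lower (93 fasted and 203 fed footprints; -0.77, -1.14 to -0.41), while the widely expressed Rac1 was higher (1603 fasted and 1281 fed; 0.68, 0.57 to 0.79), though not with plain CPM (0.36).

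Of the antimicrobial effectors, Mpeg1, the pore-forming perforin-2 of macrophages, had 840 footprints in the fasted and 936 in the fed library. Its log2 ratio was 0.20 (0.063 to 0.34) with TMM and -0.12 with plain CPM, so its direction depends on the scaling. Lyz2, the lysozyme of macrophages, had 362 footprints in the fasted and 593 in the fed library (log2 ratio -0.36, -0.55 to -0.17; -0.68 and lower with plain CPM). Relative to the other listed genes Lyz2 changed by -0.45 (-0.65 to -0.25). The neighbouring gene Lyz1, the lysozyme of Paneth cells, had 11275 footprints in the fasted and 14351 in the fed library (0.0070, -0.029 to 0.043).

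The coding sequences of this pair are shown because they limit what the Lyz2 count can say. Both lie on the minus strand of chromosome 10, Lyz2 at 117277331 to 117282321 and Lyz1 at 117287797 to 117292868, and the sequences come from GENCODE vM21 transcripts without the stop codon. Shown are coding bases 121 to 400, with capitals at the 11 bases that differ there, of 22 in the whole 444 bases.
Lyz2: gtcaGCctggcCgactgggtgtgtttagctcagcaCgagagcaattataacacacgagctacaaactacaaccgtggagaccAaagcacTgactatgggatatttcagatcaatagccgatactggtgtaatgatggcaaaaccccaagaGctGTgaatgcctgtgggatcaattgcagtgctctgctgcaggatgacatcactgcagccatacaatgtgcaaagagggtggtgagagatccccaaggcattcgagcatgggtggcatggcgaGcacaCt
Lyz1: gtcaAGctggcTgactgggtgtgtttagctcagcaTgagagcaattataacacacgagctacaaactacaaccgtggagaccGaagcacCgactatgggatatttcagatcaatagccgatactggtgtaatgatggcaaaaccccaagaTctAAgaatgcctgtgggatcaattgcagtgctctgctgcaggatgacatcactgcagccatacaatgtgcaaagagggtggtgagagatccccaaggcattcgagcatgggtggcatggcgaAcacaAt
The pair is 95.045% identical, with an identical run of 118 bases, and 58.3% of the 28-base windows of Lyz2 were unique. The remaining windows occur elsewhere too, and the files count reads that align to several places apart from all genes. The part of Lyz1 footprints in the Lyz2 count was not tested.

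**Figure D3:**
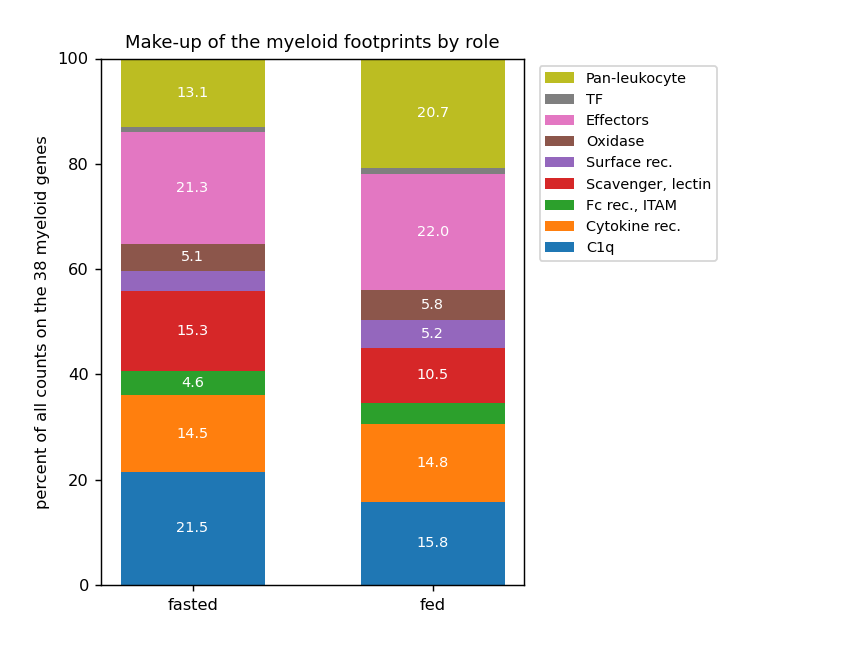
Share of all footprints on the 38 myeloid genes that fell on each role, in percent, for the fasted (left) and fed (right) library, 1 library each. C1q chains took 21.5% in the fasted against 15.8% in the fed library, and pan-leukocyte genes 13.1% in the fasted against 20.7% in the fed library.

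Of the 4 measured genes grouped here as wider leukocyte genes, 3 were lower and 0 higher, beside 17.3% of all measured genes lower. Aif1, among those 3, is known as a macrophage gene rather than one of all leukocytes. With plain CPM 4 of 4 were lower, beside 31.2%. Lcp1, the actin-bundling L-plastin of all leukocytes, had 295 footprints in the fasted and 660 in the fed library, 1.75-fold lower (log2 ratio -0.81, -1.01 to -0.61). Cd53, a leukocyte tetraspanin, had 88 in the fasted and 190 in the fed library (-0.76, -1.14 to -0.38), and Aif1, the calcium-binding protein IBA1 of macrophages, 19 in the fasted and 57 in the fed library (-1.23, -2.06 to -0.46). Laptm5, a lysosomal membrane protein of blood cells, had 333 in the fasted and 524 in the fed library (-0.30, -0.50 to -0.098), short of 1.5-fold with TMM and lower with plain CPM (-0.62). Lst1 had 5 footprints in the fasted and 8 in the fed library. The 5 genes of this group took 13.1% of footprints on the 38 genes in the fasted library (95% exact interval 12.2% to 13.97%) and 20.7% in the fed library (19.8% to 21.7%), a log2 change of -0.80 (-0.94 to -0.66) against the other 33 genes. Windows of 28 bases in Lcp1 were 61.3% unique, the pseudogene Gm6201 sharing more of the rest than any other gene, and the antisense gene Gm15629 overlaps its exons.

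Other pan-leukocyte genes outside the 38 lay in the same direction, with 11 of 14 measured genes lower, 1 higher (Cytip) and a median log2 ratio of -0.81. Over all measured genes 17.3% were lower and 17.2% higher. Ptprc, the CD45 antigen of all leukocytes, had 344 footprints in the fasted and 804 in the fed library (-0.87, -1.06 to -0.69), and Ikzf1, a lymphoid factor, 21 in the fasted and 87 in the fed library (-1.70, -2.46 to -0.995). T cell markers had 2 of 12 measured genes lower (16.7%, near the background of 17.3%) and 1 higher. Their median was -0.42 with TMM, and their summed level was 164.4 scaled CPM in the fasted against 209.3 in the fed library. With plain CPM 6 of these 12 were lower and 0 higher, beside 31.2% and 8.86% of all measured genes. In the rest of the tissue, epithelial markers had 1 of 9 higher (median 0.15), Paneth cell markers 1 of 6 higher (-0.049), and fibroblast and smooth muscle markers 7 of 10 lower and 2 higher (-0.88). The share of macrophages and of lymphocytes in the differences of Lcp1, Cd53, Laptm5 and Ptprc was not tested.

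**Figure D4:**
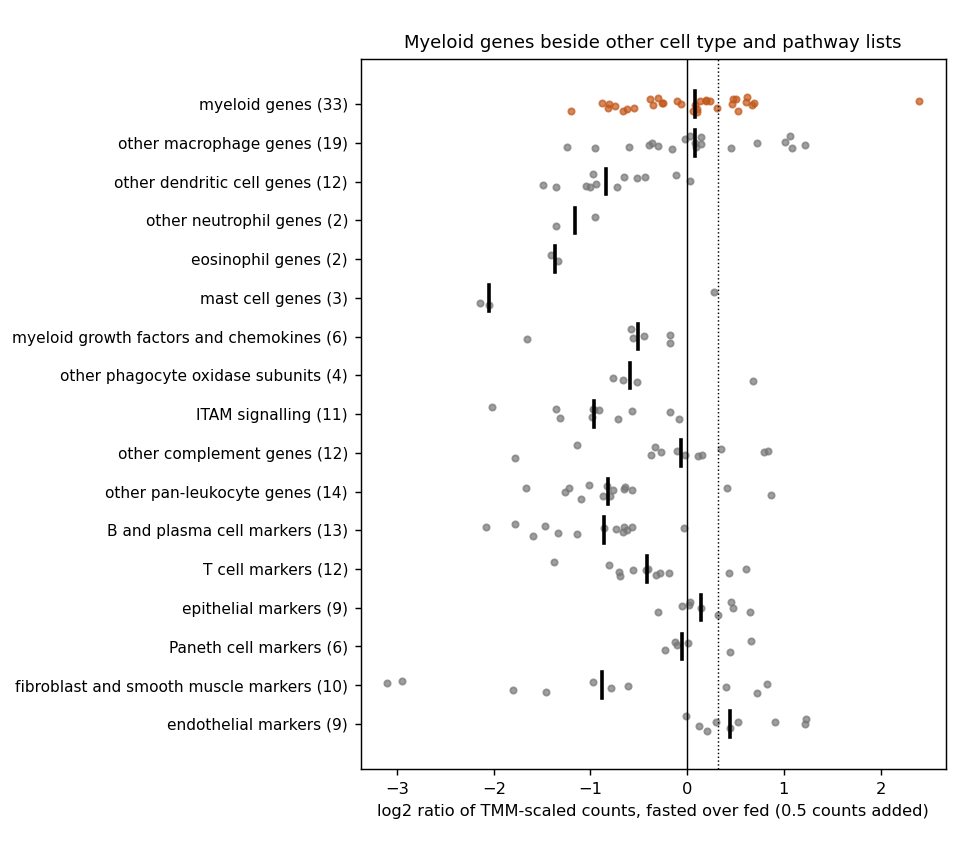
Log2 ratios (fasted over fed, TMM-scaled, 0.5 counts added) of measured genes as points, with the median as a bar, for the myeloid genes (top row) and each other list, with the number of measured genes in brackets; the solid line marks no difference with TMM and the dotted line with plain CPM. The myeloid and other macrophage genes have medians of 0.084 and 0.086, and dendritic, ITAM, pan-leukocyte and B cell lists lie between -0.81 and -0.96.

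Further macrophage genes had a median near that of the 38, and their summed counts were higher relative to those of the 38, by a log2 change of 0.29 (0.22 to 0.36). Of 19 measured, 5 were higher in the fasted library, 2 were lower and 12 were neither. Background shares were 17.2% higher and 17.3% lower. With plain CPM 4 were higher and 6 lower, beside 8.86% and 31.2%. The median log2 ratio was 0.086 with TMM (-0.24 with plain CPM, and -0.019 among those with 100 or more summed counts). Higher were the transcription factor Maf (1692 fasted and 1033 fed footprints; 1.07, 0.95 to 1.18), Mertk, a receptor for engulfing dying cells (781 fasted and 470 fed; 1.09, 0.92 to 1.26), and Lyve1, shared by perivascular macrophages and lymphatic vessels (203 fasted and 111 fed; 1.23, 0.89 to 1.57). Those 3 were higher with plain CPM too. Maf alone held 1692 of the list's 6547 footprints in the fasted and 1033 of 6569 in the fed library. The list's summed change without Maf was not computed. Per kilobase of coding sequence Maf stood at 305.4 scaled CPM in the fasted and 145.8 in the fed library. Lyz2, the highest of the 38 genes, stood at 167.8 in the fasted and 214.9 in the fed library. The part of cells other than macrophages in the Maf and Mertk values, and in the summed change, was not tested. Endothelial markers, which include Lyve1, were higher in 3 of 9 (median 0.45), and their part in the Lyve1 value was not tested. Itgam, the CD11b integrin of monocytes, macrophages and neutrophils, was among the lower genes (156 fasted and 474 fed; -1.25, -1.52 to -0.98). Only 3.91% of 28-base windows in Itgam were unique, Gm49368 sharing more of the rest than any other gene, which limits what its count can say.

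Dendritic cell and antigen presentation genes lay lower than the 38. Of 12 measured, 8 were lower and 0 higher, beside 17.3% of all measured genes lower, with a median of -0.84. With plain CPM 10 were lower, beside 31.2%. Relative to the summed 38 genes the list changed by -0.99 (-1.05 to -0.93). Lower genes included Ciita, the master regulator of MHC class II (49 fasted and 178 fed footprints; -1.51, -1.99 to -1.04), Cd74, the invariant chain (7092 fasted and 17476 fed; -0.95, -0.99 to -0.91), and Irf8, a factor of dendritic cells and B cells (225 fasted and 594 fed; -1.05, -1.27 to -0.82). Cd74 held most of the summed counts, and B cells and epithelium express it as well. Of measured granulocyte genes, 1 of 2 neutrophil, 2 of 2 eosinophil and 2 of 3 mast cell genes were lower, beside the same 17.3%, and 0 higher. They were Mmp9, a neutrophil and macrophage protease (103 fasted and 339 fed; -1.36, -1.70 to -1.04), the eosinophil lectin Siglecf (28 fasted and 96 fed; -1.42, -2.09 to -0.80), the lipoxygenase Alox15 (8 fasted and 27 fed; -1.40, -2.75 to -0.22), and the mucosal mast cell proteases Mcpt1 (17 fasted and 98 fed; -2.17, -3.01 to -1.42) and Mcpt2 (6 fasted and 34 fed; -2.15, -3.69 to -0.88).

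Complement genes beyond C1q had a median log2 ratio of -0.065. Both counts with TMM, 16.7% each way, were near the background of 17.2% higher and 17.3% lower. With plain CPM 0 were higher and 5 lower (41.7%), beside 8.86% and 31.2% of all measured genes. Of 12 measured, 2 were higher with TMM (among them C5ar1, a receptor for the fragment C5a, 130 fasted and 96 fed footprints, 0.79, 0.40 to 1.19), 2 were lower (Cd55, 127 fasted and 560 fed, -1.79, -2.08 to -1.51, and C3, 1237 fasted and 3488 fed, -1.14, -1.24 to -1.05) and 8 were neither. C3 and Cd55 are also made by epithelium, and 59.2% of 28-base windows in Cd55 were unique. With plain CPM C5ar1 was not called.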

How the data were processed

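Each library has 1 deposited file, in which the authors give unnormalized counts of footprint reads by gene symbol. The submitters' processing notes name cutadapt, Bowtie 1.1.2, STAR, HTSeq and build mm10, with no role or order. The annotation, strand setting and footprint lengths kept are not stated there. NA entries (7827 fasted, 7647 fed) were read as 0. Totals of unassigned reads stayed out of library sizes: reads aligned to several places (39.9% of counted reads fasted, 41.4% fed), no feature (21.0%, 13.4%) and ambiguous (0.196%, 0.209%). The 24 symbols turned into dates stayed in totals and are not named.

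TMM scaling used edgeR 4.0.16 in R 4.3.3, for scaling only. Intervals are Clopper-Pearson intervals on the split of each gene's counts, and no p-values were computed. Medians use 0.5 added counts. Coordinates (1-based), coding lengths and 28-base uniqueness come from GENCODE vM21 (GRCm38, the assembly of mm10). The functions were tested on simulated data. Alternatives were plain CPM, DESeq2 1.42.0 median-ratio factors, upper-quartile factors, a reduced TMM, other minimum counts, thresholds, intervals and members left out. Comparisons of counts against other members, or against a single gene, were chosen after seeing the data. Members and lists were chosen with earlier results of these data known. All members are accounted for, and from other lists at most 3 called genes in the main direction and 2 in the other are named, ranked by the interval bound nearest to 1, besides fixed ligands and paralogs. Genes named in a check of cell type, or for a count of 0, were added after their values were seen. Some genes that this rule would name are not reported here.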

Additional observations from a re-analysis of the deposited data

Results flagged for a closer look

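Reads that overlap no counted feature, which enter no ratio here, made up 21.0% of counted reads in the fasted library (95% exact interval 20.957% to 20.9997%) and 13.4% in the fed library (13.36% to 13.40%). The value stood out because it lies outside the gene counts and is higher in the fasted library. Its part in the ratios of the myeloid genes was not tested.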

How the results depend on the processing

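Median-ratio factors, upper-quartile factors and TMM without ribosomal protein, mitochondrial and the 20 most abundant genes kept all 9 calls, and upper-quartile factors added Ncf4. Plain CPM kept 6 calls, lost 3 (Fcgr2b, Cd14, Msr1) and added 6 (Flt3, Adgre1, Ncf4, Lyz2, Spi1, Laptm5), which gave 1 gene higher and 11 lower, a median log2 ratio of -0.24 and a summed log2 ratio of -0.26, both of opposite sign to the TMM values. Higher genes numbered 1 with a 2-fold threshold or with the wider confidence intervals tried (Cd163 in both). Lower genes numbered 1 with a 2-fold threshold (Aif1), 2 with the wider intervals (Lcp1 and Cd53), 3 with a minimum of 100 counts, 2 without the pan-leukocyte genes, and 6 with no minimum, where Ccr2 joined. The pan-leukocyte genes left out included Aif1, a macrophage gene. Shares over all measured genes were not computed for the other thresholds, intervals and minimum counts. The counts at those settings are therefore not compared with genes at large. The summed log2 ratio was 0.062 over all genes, 0.096 without Lyz2, 0.20 without the pan-leukocyte genes and, chosen after seeing the data, 0.011 without Cd163 and -0.11 without Cd163 and the C1q chains, which reversed it. Plain CPM shifts every log2 ratio by the same amount, while the other settings change the calling rule or the members counted. No replicate could be left out, with 1 library per group. No paired analysis was possible because each group has 1 library. Depth limits the 12 measured genes under 100 summed counts, whose intervals are widest.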

Other observations

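Several low-count genes of the monocyte, dendritic and mast cell lists were at 0 in the fasted library, and they were picked out for that. Ccl8, a monocyte chemokine, had 0 footprints in the fasted and 21 in the fed library, and the 95% exact interval of its ratio reached up to 0.246. Clec12a, an inhibitory lectin of monocytes and dendritic cells, had 0 in the fasted and 15 in the fed library, with a ratio of up to 0.357 by that interval. Cpa3, the mast cell carboxypeptidase, had 0 in the fasted and 9 in the fed library, with a ratio of up to 0.648. The next genes were also chosen after their values were seen. Ccr3, the eotaxin receptor of eosinophils, had 5 in the fasted and 18 in the fed library (log2 ratio -1.49, -3.28 to -0.010), and its ligand Ccl11 49 in the fasted and 94 in the fed library (-0.58, -1.11 to -0.072). Retnlg, a resistin-like gene of neutrophils, lay the other way with 19 in the fasted and 7 in the fed library (1.80, 0.48 to 3.29), under the minimum of 30.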
